A study of Saccharomyces cerevisiae with 18 samples.

Results

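The mRNA levels of budding yeast grown in SD, a minimal synthetic medium, were set against those in YPD, the rich medium made of yeast extract, peptone and glucose. The members are the 4 RNA-Seq libraries from SD and the 5 RNA-Seq libraries from YPD, chosen by the growth medium in the labels, which makes 9 of the 18 libraries of the series, and 6713 open reading frames (ORFs) were counted in each. The other 9 libraries are Ribo-Seq (ribosome footprints) from the same lysates. The SD cultures were the wild type (wt), Δtma20, Δtma64 and ΔΔtma20tma64, and the YPD cultures were 2 separate wt lysates (WT1 and WT2), Δtma20, Δtma64 and ΔΔtma20tma64. All strains are MATa his3delta1 leu2delta0 met15delta0 ura3delta0, so wt itself lacks LEU2, MET15 (also named MET17) and URA3 and carries a partial deletion of HIS3. The single mutants carry tma20delta::KanMX4 or tma64delta::KanMX4, and the double mutant carries tma64delta::HygMX4 with tma20delta::KanMX4. TMA20 and TMA64 encode the yeast relatives of the mammalian translation factors MCT-1 and eIF2D, which act in recycling of the small ribosomal subunit. Every culture grew at 30 °C in 2% glucose to the exponential stage and received 100 µg/ml cycloheximide, an inhibitor of elongation, for 3 min before harvest by filtration. The labels describe SD as yeast nitrogen base without amino acids plus glucose and name no supplement, while the study's methods give a complete amino acid supplement, so which amino acids the SD cultures received is stated in 2 ways. Each mutant is represented by 1 lysate per medium, so the test rests on 4 strains that each went through both media. Its p-values measure the spread among these lysates, including that between WT1 and WT2, drawn towards the spread of other ORFs.

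SD and YPD differ in nearly every nutrient other than glucose. Yeast nitrogen base supplies inorganic phosphate, ammonium, metal salts and a set of vitamins in defined amounts, whereas yeast extract and peptone bring amino acids, peptides, nucleobases, lipids and organically bound metals. Yeast senses many of these compounds through dedicated pathways: Pho4 switches on phosphate uptake when phosphate is low, Aft1 does so for iron and Mac1 for copper, Bas1 and Pho2 drive purine synthesis when adenine is scarce, Gcn4 drives amino acid synthesis, and the pair of Ino2 and Ino4, held back by Opi1, drives phospholipid synthesis when inositol is scarce.

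The libraries held 8533757 to 10790154 ORF counts in SD, within a range of 5608491 to 11388027 over all 9, with a median of 9789698. The labels were checked with the deleted genes. TMA20 had 3 counts in Δtma20 and 10 in ΔΔtma20tma64 in SD, against 1654 in wt in SD, and 0 and 16 in the same mutants in YPD, against 1400 in WT1 and 879 in WT2. TMA64 had 0 and 5 counts in Δtma64 and ΔΔtma20tma64 in SD and 2 and 7 in YPD, against 545 to 978 in the wt libraries of both media. The 2 YPD wild-type libraries correlated with Pearson's r = 0.99 across ORFs (genes are not independent replicates). The first principal component held 60.2% of the variance and separated the media, with SD at 18.3 to 29.5 and YPD at -19.7 to -14.4, and ΔΔtma20tma64 in SD lay farthest out.

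The make-up of the reads differed between media as well. Uniquely mapped reads outside annotated features of their own strand took 28.3% to 39.1% in SD and 18.8% to 23.6% in YPD. Reads outside features of either strand took 25.88% to 36.1% in SD and 16.66% to 21.25% in YPD. ORFs took 59.7% to 70.7% in SD and 75.3% to 80.3% in YPD. The ranges did not overlap (exact permutation test, two-sided, p = 0.00794 each, the smallest that 4 against 5 libraries allow, adjusted p = 0.0127 over 8 shares). Reads on several loci took 42.08% to 46.36% of mapped reads in SD and 46.39% to 51.48% in YPD. ΔΔtma20tma64 in SD had the highest share outside features, 39.1%, and counts over gene lists that change without that library are also given without it. Mitochondrial ribosomal RNA took 0.136% to 0.344% in SD and 0.0752% to 0.165% in YPD (exact permutation test, p = 0.0397, adjusted p = 0.0454), with overlapping ranges. The part of these shares in the results that follow was not tested.

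**Figure D1:**
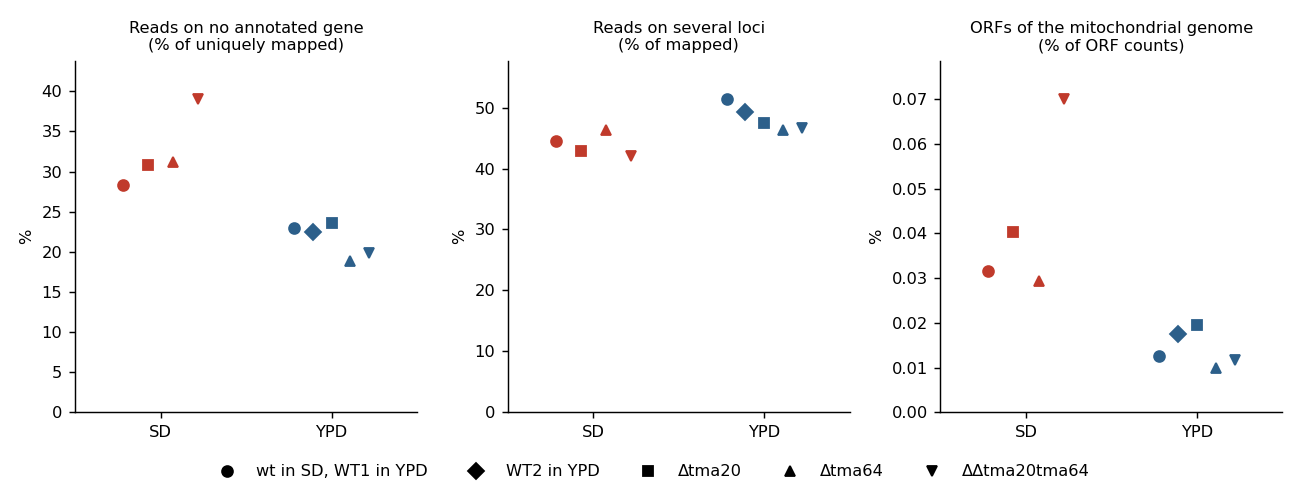
Percent of reads (y axis) in the 4 SD and 5 YPD RNA-Seq libraries, 1 point per library and 1 symbol per strain. The panels show reads on no annotated gene of their own strand, on several loci and on ORFs of the mitochondrial genome. SD lies higher for reads on no gene and on mitochondrial ORFs, with ΔΔtma20tma64 in SD as the highest point, and lower for reads on several loci, where the ranges nearly touch.

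Of 5889 ORFs with enough counts to test, 847 were higher and 704 lower in SD (edgeR quasi-likelihood test with the strain as a further term, adjusted p under 0.05), so 26.3% of ORFs rose or fell, 14.4% rose and 12% fell. Of the called ORFs, 100 are not in RefSeq, and among the 5641 tested ORFs in RefSeq 757 rose and 694 fell. Levels are given as CPM, the counts of a gene per 1000000 counts of its library after scaling. The median log2 fold change over all tested ORFs was close to 0, at 0.0049. Most changes were modest: the median log2 fold change was 0.50 among ORFs that rose and -0.46 among those that fell, and 189 rose and 111 fell by at least 2-fold. The large changes were mainly falls, as 39 ORFs fell and 20 rose by at least 4-fold. The SD to YPD difference had the same sign in all 4 strains for 1520 of the 1551 called ORFs (98.0%). The number of calls depended on single libraries: it was 1956 without WT1, and 845 and 843 without the Δtma20 library in SD or in YPD. It was 1006 and 984 without the ΔΔtma20tma64 library in SD or in YPD, and either omission removes that strain's comparison. Without ΔΔtma20tma64 in SD, 559 ORFs rose and 447 fell, against which the list counts without that library are to be read. When libraries were scaled by their totals alone, in place of edgeR's trimmed mean of M-values (TMM), the median of all ORFs moved to 0.059 and the split to 1028 that rose and 499 that fell, so that 67.3% of calls were rises, against 54.6% in the main fit. Because these are bulk lysates, fewer cells of a kind and less RNA per cell cannot be told apart.

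**Figure D2:**
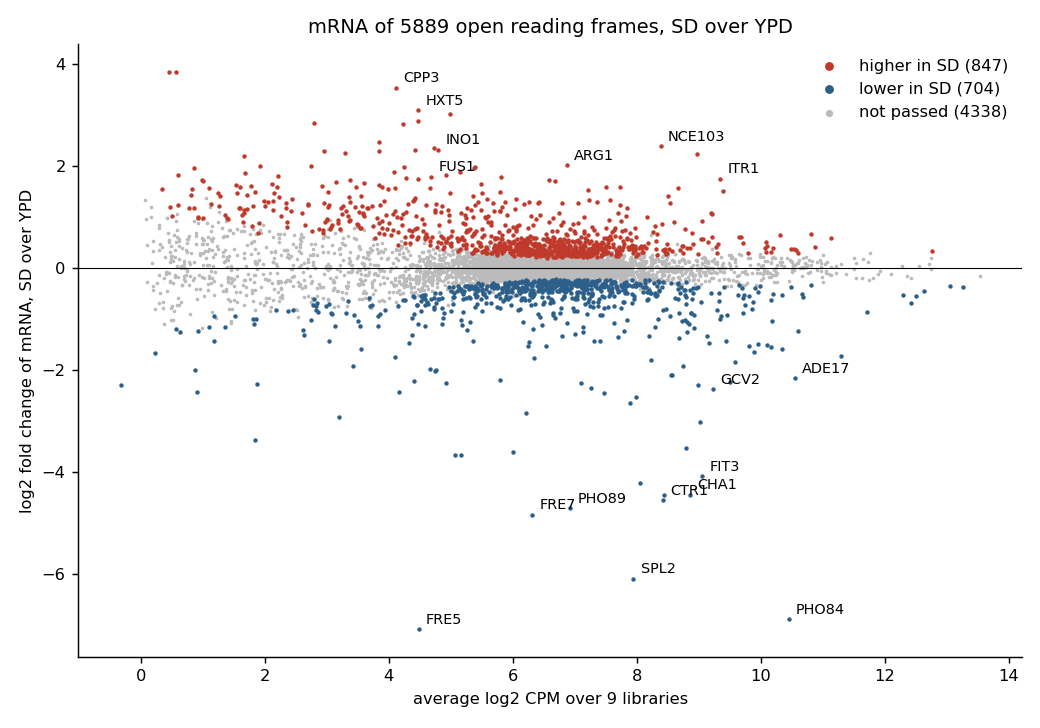
Log2 fold change of SD over YPD (y axis) against the average log2 CPM (x axis) for the 5889 tested ORFs, with the ORFs that rose and those that fell in colour and the leading genes named. The 39 ORFs that fell at least 4-fold outnumber the 20 that rose at least 4-fold, and FRE5, PHO84 and SPL2 lie lowest.

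**Figure D3:**
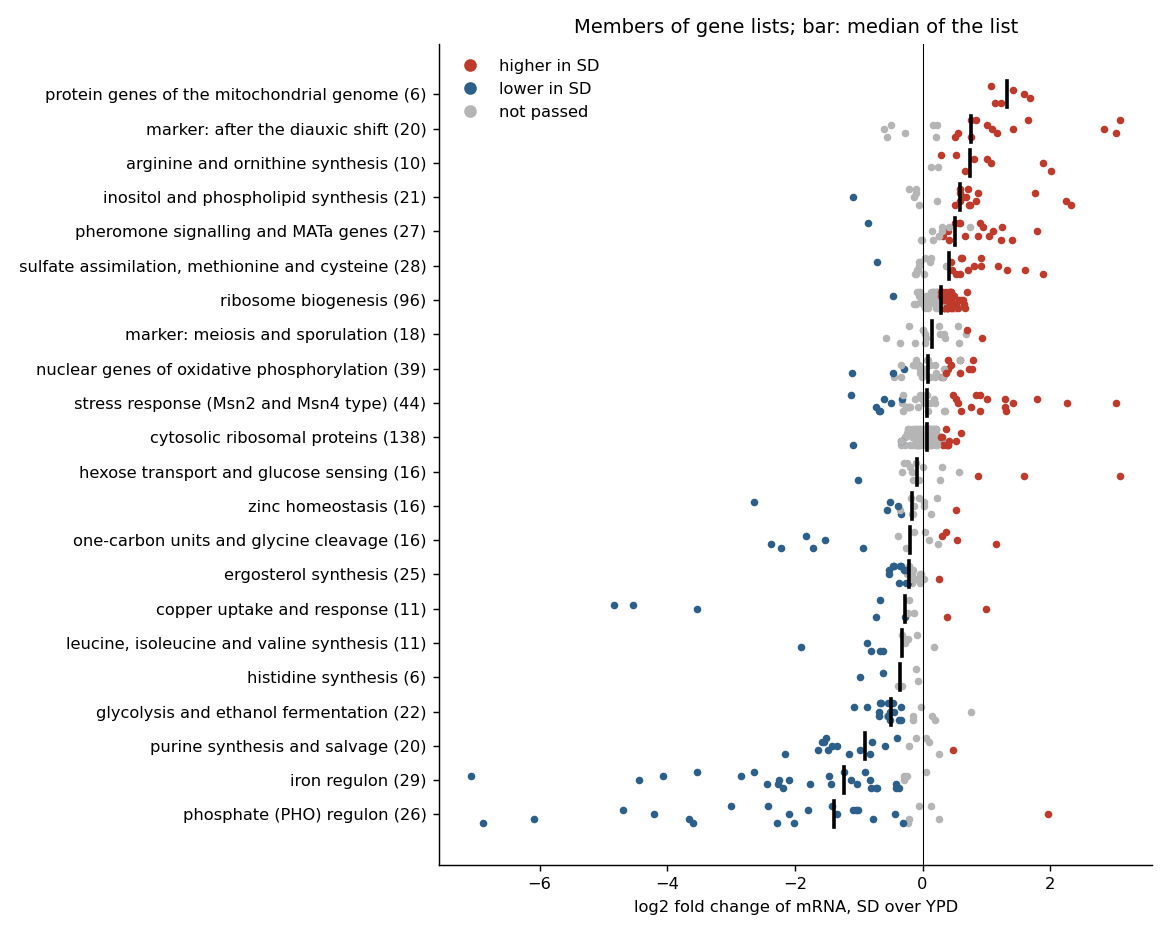
Log2 fold changes of SD over YPD (x axis) of the members of 22 gene lists (y axis), 1 point per gene, with those that passed the test marked and the list's median drawn as a line. The iron list has its median at -1.23 and the phosphate list at -1.38, both far below the median of all ORFs.

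Short promoter sequences are printed for some members of the leading lists, each of which holds the motif shown. Other called members of these lists hold no match, among them PHO8, GIT1, FRE1, ADE16 and OPI1. The following stretches of the promoter lie upstream of 3 phosphate genes and carry CACGTG, the core that Pho4 and Cbf1 bind, in capitals. They run 5′ to 3′ on the strand of the gene (RefSeq, build R64) at chrXIII:26197-26226, chrVIII:375230-375259 and chrIV:1022583-1022612.
PHO84: tgttatttccagCACGTGgggcggaaatta
SPL2: aaatgatgtacgCACGTGggcgaaagttca
PHM6: gagcttcgctgaCACGTGggaggtgggata

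The next 3 stretches lie upstream of iron genes in a single cluster on chromosome XV, at chrXV:1059389-1059417, chrXV:1061323-1061351 and chrXV:1061222-1061250, and the capitals mark TGCACCC, bound by Aft1, read here from the other strand as GGGTGCA. FIT3 and FRE5 are divergent neighbours, so both matches lie in the intergenic stretch that they share.
FIT2: cgaatctaactGGGTGCAgtataattagc
FRE5: cggaacaaacaGGGTGCAaaaaaaaatct
FIT3: attctaggaaaGGGTGCAaaaaaatgggg

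Purine and phospholipid genes are shown in the same way. In ADE17 (chrXIII:509440-509469) and ADE1 (chrI:169146-169175) the capitals mark TGACTC, the core shared by Bas1 and Gcn4. In INO1 (chrX:136094-136123), OPI3 (chrX:573066-573095) and ITR1 (chrIV:1445671-1445700) they mark CATGTG, bound by Ino2 and Ino4, which reads CACATG from the other strand.
ADE17: ccagaaatgaatTGACTCctctcataactt
ADE1: cacgagtcagtcTGACTCttgcgagagatg
INO1: acttatttaattCACATGgagcagagaaag
OPI3: tatgcaaacccaCACATGcatcgttggttt
ITR1: ccttccccaccgCATGTGaaaaaagctcga

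Motifs were searched on both strands of the 500 bases before the start codon of 5641 tested ORFs. CACGTG was found in 19 of 26 promoters of the phosphate list (73.1%) and in 17 of 28 of the sulfur list (60.7%), against 6.26% of all promoters. TGCACCC was found in 22 of 29 promoters of the iron list (75.9%), against 2.27% of all, and in 5.19% of promoters of ORFs that fell and 1.19% of those that rose. TGACTC was found in 13 of 20 purine promoters (65.0%), 11 of 16 one-carbon promoters (68.8%) and 10 of 10 arginine promoters, against 12.9% of all. CATGTG was found in 14 of 21 phospholipid promoters (66.7%), against 12.9% of all. GATGAG, the core of the PAC element of ribosome biogenesis genes, was found in 92 of 96 of their promoters (95.8%), against 28.1% of all, and in 40.7% of promoters of ORFs that rose and 20.5% of those that fell. AGGGG, bound by Msn2 and Msn4, was found in 36 of 44 stress promoters (81.8%), against 34.3% of all, but at 35.4% and 35.6% of ORFs that rose and fell. The lists hold known targets of these factors, so a high share in a list is a property of how it was drawn up, and a match is not evidence of binding.

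Phosphate genes held some of the largest changes of mRNA. Of 26 genes of the PHO regulon, all tested, 20 fell and 1 rose, with a median log2 fold change of -1.38, where 12% of all ORFs fell and the median was 0.0049. PHO84 (YML123C, chrXIII:24037-25800), the high-affinity phosphate transporter, had 26.5, 21.4, 26.3 and 9.05 CPM in SD in wt, Δtma20, Δtma64 and ΔΔtma20tma64, against 2786 and 2489 CPM in WT1 and WT2 and 1625, 2231 and 3416 CPM in the same mutants in YPD. All SD values lay far below all YPD values, and the lowest was the double mutant in SD. Its mean was 20.8 ± 8.18 CPM in SD and 2510 ± 663 CPM in YPD (± standard deviation, n = 4 and 5), which is 121-fold lower in SD, with a log2 fold change of -6.88 (SE of 0.36, edgeR adjusted p = 1.05e-06). Ribosome footprints of PHO84 from the same lysates gave -7.04.

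SPL2 (YHR136C, chrVIII:374654-375100), a small protein that restrains low-affinity phosphate uptake, had 5.44, 7.59, 6.76 and 5.34 CPM in SD in the same order of strains, against 562, 392, 293, 358 and 594 CPM in YPD. The groups lay 70-fold apart on average, with a log2 fold change of -6.08 (SE of 0.24, edgeR adjusted p = 3.14e-07). PHO89, the sodium and phosphate cotransporter, averaged 7.78 ± 2.61 CPM in SD and 214 ± 58.9 CPM in YPD, a log2 fold change of -4.70. PHM6, a phosphate-responsive protein of unknown function, averaged 4.54 ± 0.789 CPM in SD and 57.6 ± 8.87 CPM in YPD, a log2 fold change of -3.65, and for both genes the adjusted p was 9.66e-07 from edgeR. GIT1, which takes up glycerophosphoinositol, fell by 1.08 on the log2 scale (edgeR adjusted p = 0.000360). The acid phosphatase gene PHO5, which the rule for named genes left out, gave -4.21 on the log2 scale, but it shares sequence with PHO3, PHO11 and PHO12. Only uniquely mapped reads were counted, so its value rests on the stretches that it does not share and is uncertain. The member that rose was PHM7, at 1.97 on the log2 scale (edgeR adjusted p = 0.000118), which was singled out after its value was seen. Without ΔΔtma20tma64 in SD, 19 members fell and 2 rose.

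Iron genes fell as a group. Of 30 listed genes of the iron regulon 29 were tested, of which 25 fell and the other 4 did not pass the test, with a median log2 fold change of -1.23 and a highest value of 0.06, and 26 fell without ΔΔtma20tma64 in SD. FRE5 (YOR384W, chrXV:1061564-1063648), a putative ferric reductase, was nearly undetected in SD, with 3, 4, 5 and 0 counts, against 347, 253, 209, 275 and 497 counts in YPD. These are 0 to 0.483 CPM in SD and 37.0 to 47.2 CPM in YPD, and the log2 fold change was -7.07 (SE of 0.35, edgeR adjusted p = 7.72e-07), a value that depends on the prior count because the SD counts are so low. It was -1.56 when reads of both strands were added. FIT2 (YOR382W, chrXV:1059531-1059992), a cell wall mannoprotein that retains iron-binding siderophores, had 31.6, 23.1, 33.2 and 21.6 CPM in SD, against 690, 547, 624, 481 and 684 CPM in YPD. The SD values were close together and 22.1-fold lower on average, with a log2 fold change of -4.45 (SE of 0.18, edgeR adjusted p = 3.14e-07) and -6.84 in footprints. Its neighbour FIT3 averaged 53.0 ± 3.8 CPM in SD and 919 ± 243 CPM in YPD, a log2 fold change of -4.07. FRE1, the main cell surface reductase for iron and copper, had 49.8 to 75.2 CPM in SD and 594 to 856 CPM in YPD, with a log2 fold change of -3.53. The mRNA of AFT1, the factor that switches on this regulon, gave -0.19 on the log2 scale and did not pass the test (edgeR adjusted p = 0.346).

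Copper uptake followed the same direction, though the copper list was mixed. There 6 of 11 tested genes were lower and 2 higher in SD (5 and 2 without ΔΔtma20tma64 in SD), where 12% of all ORFs fell and 14.4% rose. CTR1 (YPR124W, chrXVI:786208-787428), the high-affinity copper transporter, had 27.7, 26.4, 29.3 and 20.7 CPM in SD, against 499, 629, 602, 584 and 693 CPM in YPD. The groups were 23.1-fold apart, with a log2 fold change of -4.54 (SE of 0.15, edgeR adjusted p = 1.01e-07) and -4.61 in footprints. FRE7, a copper-regulated reductase, averaged 4.94 ± 1.24 CPM in SD and 141 ± 70.2 CPM in YPD, a log2 fold change of -4.83 (-2.36 when reads of both strands were added). CRS5, a metallothionein that binds excess copper, went the other way, with 42.2 to 68.9 CPM in SD and 19.9 to 33.4 CPM in YPD and a log2 fold change of 0.99 (edgeR adjusted p = 0.00254). FET4, a low-affinity transporter for iron, copper and zinc, had 35.4 to 72.3 CPM in SD and 307 to 430 CPM in YPD, a log2 fold change of -2.65 (edgeR adjusted p = 6.39e-06). FET4 is on the iron and zinc lists and not on the copper list, while FRE1 is counted on both the iron and the copper list. On the zinc list 5 of 16 genes fell and 1 rose, while without ΔΔtma20tma64 in SD 3 fell and the rise was lost. The next largest fall on that list was IZH4, a membrane protein of zinc metabolism, at -0.55.

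**Figure D4:**
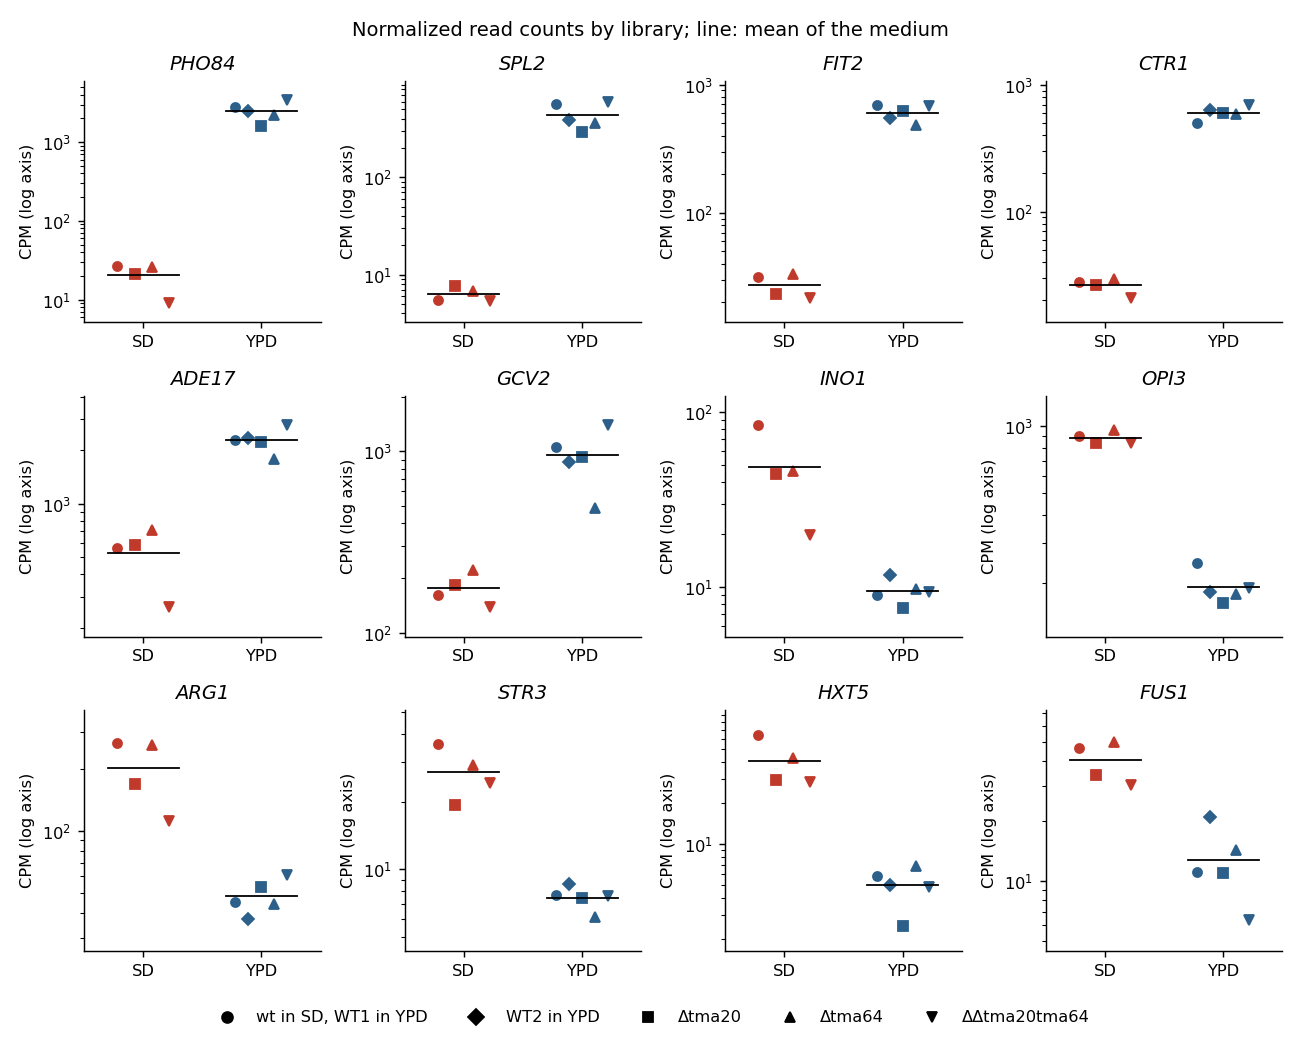
CPM on a log axis (y axis) of 12 genes in each of the 9 RNA-Seq libraries, SD on the left and YPD on the right of each panel, 1 point per library, with a line at the mean of each medium. PHO84, SPL2, FIT2, CTR1, ADE17 and GCV2 lie lower in all SD libraries, and INO1, OPI3, ARG1, STR3, HXT5 and FUS1 lie higher in all of them.

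Purine synthesis fell in SD. Of 20 genes for purine synthesis and salvage, 14 fell and 1 rose, with a median of -0.90 on the log2 scale, and 12 fell without ΔΔtma20tma64 in SD. ADE17 (YMR120C, chrXIII:507502-509280), which catalyses the last steps to inosine monophosphate, had 563, 583, 708 and 262 CPM in SD, against 2283, 2344, 2218, 1779 and 2769 CPM in YPD. The double mutant was lowest in SD and highest in YPD, and the groups did not overlap, with a log2 fold change of -2.15 (SE of 0.26, edgeR adjusted p = 0.000353). ADE1 averaged 434 ± 85.7 CPM in SD and 1366 ± 346 CPM in YPD, and ADE13 averaged 620 ± 127 CPM in SD and 1841 ± 251 CPM in YPD, with log2 fold changes of -1.64 and -1.58. Both encode enzymes that act between the first committed step and inosine monophosphate. The member that rose was ADO1, adenosine kinase of the salvage branch, at 0.48 on the log2 scale (edgeR adjusted p = 0.00624), named after its value was seen.

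One-carbon genes, which feed formyl groups into purine synthesis, were split. In this list 6 of 16 fell and 4 rose, where 12% of all ORFs fell and 14.4% rose. The members that fell most belong to glycine cleavage and the cytosolic folate cycle. GCV2 (YMR189W), the glycine decarboxylase subunit, had 161, 184, 221 and 139 CPM in SD, against 1052, 877, 931, 489 and 1388 CPM in YPD. The YPD values spread widely, with Δtma64 lowest and the double mutant highest, yet stayed above all SD values, and the log2 fold change was -2.37 (SE of 0.28, edgeR adjusted p = 0.000264). GCV1 gave -2.22, MTD1, a methylenetetrahydrofolate dehydrogenase, -1.83, and SHM2, the cytosolic serine hydroxymethyltransferase, -1.72, each with an adjusted p from 0.000165 to 0.00144 from edgeR. SHM2 had 702 to 1387 CPM in SD and 2324 to 5062 CPM in YPD. MET13, the reductase that directs one-carbon units towards methionine, rose by 1.15 on the log2 scale (edgeR adjusted p = 0.00266) and was named after its value was seen.

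Amino acid pathways did not move as 1 group. Genes of arginine and ornithine synthesis rose: 8 of 10 passed the test and the other 2 did not, with a median of 0.74 on the log2 scale, where 14.4% of all ORFs rose. ARG1 (YOL058W, chrXV:219211-220473), argininosuccinate synthase, had 268, 169, 260 and 112 CPM in SD, against 44.9, 37.2, 53.4, 44.2 and 61.2 CPM in YPD. In SD the strains that lack TMA20 were the lower ones, in YPD they were not, and the groups did not overlap, with a log2 fold change of 2.02 (SE of 0.25, edgeR adjusted p = 0.000363). ARG3, ornithine carbamoyltransferase, gave 1.89, CPA1, the small subunit of carbamoyl phosphate synthetase, 1.08, and ARG4, argininosuccinate lyase, 1.01 on the log2 scale.

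Genes of sulfate assimilation and of methionine and cysteine synthesis also rose, with 14 of 28 higher, 1 lower and a median of 0.42 on the log2 scale, and without ΔΔtma20tma64 in SD 15 rose and the fall was lost. STR3 (YGL184C), peroxisomal cystathionine beta-lyase, had 35.9, 19.4, 29.0 and 24.1 CPM in SD, against 7.71, 8.62, 7.43, 6.14 and 7.60 CPM in YPD. The lowest SD value was over the highest YPD value, and the log2 fold change was 1.89 (SE of 0.18, edgeR adjusted p = 7.23e-05), or 0.77 when reads of both strands were added. SAM2, S-adenosylmethionine synthetase, averaged 287 ± 61.6 CPM in SD and 94.3 ± 20.9 CPM in YPD, a log2 fold change of 1.60. SAM3, the S-adenosylmethionine permease, averaged 331 ± 8.7 CPM in SD and 147 ± 35.8 CPM in YPD, a log2 fold change of 1.19, and MUP1, the methionine permease, gave 0.80. MET4, the activator of these genes, rose by 0.58 (edgeR adjusted p = 0.00207), while CBF1, which acts with it, fell by 0.88 on the log2 scale (edgeR adjusted p = 0.00134).

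Several other amino acid genes fell. In the list for leucine, isoleucine and valine synthesis, 5 of 11 fell and the other 6 did not pass, and without ΔΔtma20tma64 in SD 3 fell and 1 rose. BAT2 (YJR148W), the cytosolic branched-chain aminotransferase, had 199, 148, 199 and 132 CPM in SD, against 703, 594, 736, 602 and 566 CPM in YPD. It was lower in every SD library than in any YPD library, with a log2 fold change of -1.91 (SE of 0.13, edgeR adjusted p = 6.39e-06). HIS4 gave -0.99 and HIS5 -0.61 among 6 histidine genes, and GLN1, glutamine synthetase, averaged 903 ± 205 CPM in SD and 2066 ± 189 CPM in YPD, a log2 fold change of -1.22. ARO9 and ARO10, which break down aromatic amino acids, fell by 1.17 and 1.02 on the log2 scale in mRNA, while their footprints gave -0.10 and -0.09 (edgeR adjusted p = 0.463 and 0.471). Whether the mRNA and footprint changes differ was not tested. GCN4, whose protein activates most amino acid synthesis genes and whose level is set largely in translation, had 1470 to 2064 CPM in SD and 1570 to 2053 CPM in YPD, overlapping ranges with a log2 fold change of -0.08 (edgeR adjusted p = 0.664), while its footprints were higher in SD at 1.00 (edgeR adjusted p = 0.0271).

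The strongest fall among amino acid genes was CHA1 (YCL064C, chrIII:15798-16880), the serine and threonine deaminase that these amino acids induce. It had 27.1, 38.4, 32.3 and 51.7 CPM in SD, against 1028, 765, 512, 865 and 882 CPM in YPD, 21.7-fold lower on average, with a log2 fold change of -4.43 (SE of 0.22, edgeR adjusted p = 8.66e-07) and -5.03 in footprints. Among 17 permeases under the SPS sensor of external amino acids, 7 fell and 3 rose, but 4 fell and 2 rose without ΔΔtma20tma64 in SD. The shares over all ORFs were 12% that fell and 14.4% that rose, so the rises were near that share. DIP5, the glutamate and aspartate permease, averaged 223 ± 56.9 CPM in SD and 561 ± 82.8 CPM in YPD, and PTR2, the di- and tripeptide transporter, averaged 81.7 ± 16.1 CPM in SD and 188 ± 25.8 CPM in YPD. The log2 fold changes were -1.36 and -1.25 (edgeR adjusted p = 0.000351 and 2.89e-05).

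Phospholipid genes rose. Of 21 genes for inositol and phospholipid synthesis, 14 rose and 1 fell (the transporter GIT1, given above with the phosphate genes), with a median of 0.59 on the log2 scale, and 15 rose and 1 fell without ΔΔtma20tma64 in SD. INO1 (YJL153C, chrX:134332-135933), which makes inositol phosphate from glucose 6-phosphate, had 84.8, 44.5, 46.2 and 19.7 CPM in SD, against 8.99, 11.7, 7.61, 9.73 and 9.40 CPM in YPD. The YPD values were close together, while in SD wt was highest and the double mutant lowest, and the log2 fold change was 2.32 (SE of 0.27, edgeR adjusted p = 0.000245). Footprints of INO1 gave 6.01. OPI3 (YJR073C, chrX:572315-572935), which methylates phosphatidylethanolamine towards phosphatidylcholine, had 903, 842, 962 and 842 CPM in SD, against 244, 181, 163, 178 and 188 CPM in YPD, a log2 fold change of 2.25 (SE of 0.11, edgeR adjusted p = 7.72e-07). ITR1, the inositol transporter, averaged 1069 ± 103 CPM in SD and 313 ± 25.1 CPM in YPD, a log2 fold change of 1.75. Of the regulators, the repressor OPI1 rose by 0.74 (edgeR adjusted p = 0.000351) and the activator INO4 by 0.64 on the log2 scale (edgeR adjusted p = 0.000702).

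Ergosterol genes showed small changes. Of 25 genes, 11 fell and 1 rose, with a median of -0.22. Without ΔΔtma20tma64 in SD, which also removes that strain's comparison, 3 fell and 1 rose. Over all ORFs the falls then went from 704 to 447. ERG25, a methylsterol oxidase, had 221 to 279 CPM in SD and 320 to 430 CPM in YPD, and ERG11, lanosterol demethylase, had 270 to 405 CPM in SD and 443 to 580 CPM in YPD, both at -0.52 on the log2 scale (edgeR adjusted p = 0.00713 and 0.0191).

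Both media hold glucose, and the glycolytic genes were lower in SD. Among the 22 genes from glucose to ethanol, 15 fell and the other 7 did not pass the test, with a median of -0.49 on the log2 scale, and 10 fell without ΔΔtma20tma64 in SD. PGK1 (YCR012W), phosphoglycerate kinase, had 4512, 4099, 4377 and 3507 CPM in SD, against 6697, 5738, 6546, 6997 and 7053 CPM in YPD. The groups did not overlap, with a log2 fold change of -0.69 (SE of 0.11, edgeR adjusted p = 0.00204), or -1.16 when reads of both strands were added. HXK1 and HXK2, the hexokinases, gave -1.07 and -0.66, and PYK2, the minor pyruvate kinase, gave -0.68. Some glycolytic genes have near-identical copies (TDH2 and TDH3, ENO1 and ENO2), and their values are uncertain.

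Hexose transporters went different ways. HXT5 (YHR096C, chrVIII:294669-296447), a transporter linked to slow growth, had 63.5, 29.8, 43.0 and 28.9 CPM in SD, against 5.78, 5.0, 2.48, 6.89 and 4.84 CPM in YPD. Every SD value was over 4 times every YPD value, and the log2 fold change was 3.10 (SE of 0.20, edgeR adjusted p = 5.64e-06), with 4.94 in footprints and 1.29 in mRNA when reads of both strands were added. HXT1, the low-affinity transporter induced by high glucose, averaged 329 ± 75.7 CPM in SD and 117 ± 36.4 CPM in YPD, a log2 fold change of 1.59. HXT4, a high-affinity transporter, averaged 23.8 ± 9.69 CPM in SD and 46.0 ± 4.48 CPM in YPD, a log2 fold change of -1.01 (edgeR adjusted p = 0.00282). In all, 3 of 16 tested genes of this list rose and 1 fell, where 14.4% of all ORFs rose and 12% fell. Without ΔΔtma20tma64 in SD 3 rose and 2 fell.

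Stress genes of the Msn2 and Msn4 type were mixed, with 16 of 44 higher and 7 lower and a median of 0.08, and 12 rose and 7 fell without ΔΔtma20tma64 in SD. Over all ORFs 14.4% rose and 12% fell. GRE1 (YPL223C, chrXVI:128632-129138), a hydrophilin made under osmotic and drying stress, had 71.2, 26.2, 74.6 and 65.0 CPM in SD, against 9.64, 9.48, 5.66, 6.59 and 6.27 CPM in YPD, a log2 fold change of 3.02 (SE of 0.18, edgeR adjusted p = 3.09e-06). Δtma20 was the lowest SD library and still lay above all YPD libraries, and the log2 fold change was 1.75 when reads of both strands were added. NQM1, a transaldolase relative, averaged 91.2 ± 36.0 CPM in SD and 26.5 ± 2.74 CPM in YPD, a log2 fold change of 1.79. HSP12, a small membrane-associated heat shock protein, had 437, 443, 377 and 1015 CPM in SD, against 236, 189, 153, 172 and 236 CPM in YPD. The double mutant in SD was far above the other SD libraries, and the log2 fold change over all strains was 1.42 (edgeR adjusted p = 0.000218).

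Marker genes of cells past the diauxic shift, when glucose has run out, were examined because the sources used here give no density or growth rate of the cultures. Of 20 such genes 13 rose and the other 7 did not pass the test, with a median of 0.76, and 10 rose without ΔΔtma20tma64 in SD. Among those that rose, SPG4, a stationary phase gene, averaged 11.9 ± 6.04 CPM in SD and 1.73 ± 0.808 CPM in YPD, FMP45, an eisosome protein, averaged 70.7 ± 16.9 CPM in SD and 22.8 ± 4.74 CPM in YPD, and CYB2, lactate dehydrogenase, gave 1.08 on the log2 scale (0.33 when reads of both strands were added). The defining enzymes of growth without glucose did not pass the test: PCK1 gave -0.49, FBP1 0.16, ICL1 0.22, MLS1 -0.60, ADH2 -0.55 and JEN1 -0.27 on the log2 scale. The part of growth stage in the other results was not tested.

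Protein genes of the mitochondrial genome rose. All 6 tested members of 8 listed rose, with log2 fold changes of 1.07 to 1.69 and a median of 1.32, and 5 rose without ΔΔtma20tma64 in SD. COX1 (Q0045, mitochondrion:13818-26701), subunit 1 of cytochrome oxidase, had 17.6, 22.3, 17.1 and 33.6 CPM in SD, against 7.60, 7.93, 11.0, 4.79 and 6.08 CPM in YPD. The double mutant was highest in SD, the groups did not overlap, and the log2 fold change was 1.59 (SE of 0.24, edgeR adjusted p = 0.00130). COB, cytochrome b, averaged 13.5 ± 4.8 CPM in SD and 4.08 ± 1.23 CPM in YPD, a log2 fold change of 1.69. ORFs of the mitochondrial genome took 0.0294% to 0.0701% of ORF counts in SD and 0.00982% to 0.0194% in YPD. Yeast mitochondrial mRNAs have no long poly(A) tail, so the oligo(dT) selection does not enrich for them, and mitochondrial rRNA and reads outside features were also more frequent in SD, with the highest shares in ΔΔtma20tma64. The part of these shares was not tested. Nuclear genes of oxidative phosphorylation moved less, with 10 of 39 higher and 3 lower and a median of 0.09 (8 and 3 without ΔΔtma20tma64 in SD). The shares over all ORFs were 14.4% that rose and 12% that fell. CYC1, cytochrome c isoform 1, averaged 100.2 ± 24.0 CPM in SD and 56.0 ± 5.22 CPM in YPD, a log2 fold change of 0.80 (edgeR adjusted p = 0.00179).

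Ribosome biogenesis genes were higher in SD, by small amounts. Of 96 genes 50 rose and 1 fell, with a median of 0.30 on the log2 scale. Without ΔΔtma20tma64 in SD 36 rose and 1 fell, where the rises over all ORFs went from 847 to 559. SDA1, needed for export of the large subunit, had 193, 204, 157 and 164 CPM in SD, against 132, 105, 105, 112 and 105 CPM in YPD, a log2 fold change of 0.69 (SE of 0.10, edgeR adjusted p = 0.000925). NOP15, a factor of large-subunit maturation, averaged 250 ± 25.3 CPM in SD and 162 ± 16.8 CPM in YPD, a log2 fold change of 0.64. With library totals in place of TMM, which moves all ORFs upwards, 65 rose and 1 fell. The ribosomal proteins themselves showed little: 10 of 138 cytosolic ones rose and 2 fell, with a median of 0.07 (31 rose and 2 fell with library totals, 7 rose and 1 fell without ΔΔtma20tma64 in SD). Of 84 mitochondrial ones 1 rose and 10 fell, with a median of -0.06 (1 and 7 without ΔΔtma20tma64 in SD). The shares over all ORFs were 14.4% that rose and 12% that fell, so the mitochondrial falls were near that share. The largest change among the ribosomal proteins was RPS28B, at 287 ± 48.3 CPM in SD and 600.2 ± 79.8 CPM in YPD. Its log2 fold change was -1.09 (edgeR adjusted p = 0.000373).

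Mating genes rose, and the labels name no pheromone treatment. Of 27 tested genes of pheromone signalling and of MATa cells, 16 rose and 1 fell, with a median of 0.51 on the log2 scale, and 15 rose and 1 fell without ΔΔtma20tma64 in SD. FUS1 (YCL027W, chrIII:71803-73341), a membrane protein of cell fusion, had 46.8, 34.1, 50.1 and 30.5 CPM in SD, against 11.1, 20.9, 11.0, 14.2 and 6.36 CPM in YPD. WT2 was the highest YPD library and the double mutant the lowest, no YPD value reached the SD range, and the log2 fold change was 1.80 (SE of 0.20, edgeR adjusted p = 0.000181). MFA1, one of the genes for the a-factor pheromone, averaged 307 ± 36.0 CPM in SD and 134 ± 25.1 CPM in YPD, and AGA1, the anchor subunit of agglutinin, averaged 60.7 ± 8.78 CPM in SD and 26.1 ± 4.07 CPM in YPD. Their log2 fold changes were 1.25 and 1.24. The member that fell was PRM4, at -0.86 on the log2 scale (edgeR adjusted p = 0.00149), named after its value was seen. Of the markers of the other mating type, MF(ALPHA)1 and MF(ALPHA)2, which encode the alpha-factor pheromone, had 3 to 15 counts in SD and 0 to 10 counts in YPD, and STE3 and SAG1 gave -0.05 and -0.09 on the log2 scale (edgeR adjusted p = 0.883 and 0.654). Of 18 meiosis markers 2 rose and the other 16 did not pass the test, where 14.4% of all ORFs rose. Without ΔΔtma20tma64 in SD 1 rose.

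Several of the largest changes were in genes not described above. CPP3 (YDR034W-B, chrIV:521314-521469), a short ORF, had 44.8, 23.8, 33.0 and 30.0 CPM in SD, against 2.25, 3.62, 2.48, 3.59 and 2.75 CPM in YPD, the largest rise of the named genes, at 3.54 on the log2 scale (SE of 0.21, edgeR adjusted p = 2.44e-06). NCE103 (YNL036W, chrXIV:559814-560479), carbonic anhydrase, had 574, 572, 608 and 681 CPM in SD, against 97.2, 94.2, 147, 127 and 104 CPM in YPD, a log2 fold change of 2.40 (SE of 0.12, edgeR adjusted p = 7.72e-07). Its SD values were close together and far above all YPD values. TMA10, a ribosome-associated protein, gave 2.90, RTA1, a membrane protein of the lipid translocating family, 2.30, and the unnamed ORFs YPR145C-A and YNL194C (on the stress list) gave 2.82 and 2.26 on the log2 scale. When reads of both strands were added, RTA1 gave 0.76 and YNL194C 0.67. SPO22, a meiosis gene, gave 2.48 with counts of its own strand and -0.30 when reads of both strands were added, so its direction depends on the strand setting.

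RSB1, a sphingoid base exporter, fell to 4.13, 3.79, 7.34 and 3.08 CPM in SD, against 107, 56.7, 38.2, 54.8 and 50.6 CPM in YPD, a log2 fold change of -3.66 (edgeR adjusted p = 1.80e-05) and -3.48 without WT1, which was the high value, and -1.78 when reads of both strands were added. WT1 was also high for TIR1, ANB1 and DAN1. TIR1, a cell wall mannoprotein, had 3.08 to 8.26 CPM in SD, against 80.7 CPM in WT1 and 13.3 to 26.7 CPM in the other YPD libraries. The log2 fold change of TIR1 was -2.21 with WT1 (edgeR adjusted p = 0.00175) and -1.86 without it (adjusted p = 7.57e-05). ANB1, the low-oxygen form of the translation factor eIF5A, gave -1.73 with WT1 (edgeR adjusted p = 0.0148) and -1.33 without it. DAN1, another mannoprotein, gave -3.36 (edgeR adjusted p = 0.0154) and -2.44 without WT1 (-2.22 when reads of both strands were added), at 0 to 0.805 CPM in SD. ANB1 and DAN1 lost the call without wt in SD (adjusted p = 0.0605 and 0.0813), without ΔΔtma20tma64 in SD (0.0530 and 0.0505) and without ΔΔtma20tma64 in YPD (0.0560 and 0.0523).

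Among 50 transcription factors of nutrient pathways, 7 rose and 8 fell, a share near that of all ORFs, and 5 rose and 5 fell without ΔΔtma20tma64 in SD. PHO4, the activator of the phosphate genes, gave -0.70 on the log2 scale (edgeR adjusted p = 0.0197), with 37.2 to 77.0 CPM in SD and 80.5 to 114 CPM in YPD, and -0.01 in footprints. The call of PHO4 was lost without Δtma64 in SD (adjusted p = 0.0516) or in YPD (adjusted p = 0.0529). BAS1, which drives purine synthesis, rose while most purine genes fell, at 0.275 to 0.635 on the log2 scale over the alternative settings. Its call was lost without Δtma20 in SD (edgeR adjusted p = 0.0514) or in YPD (adjusted p = 0.0519).

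The change was also described in each of the 4 strains. The median SD to YPD difference of the ORFs that rose for wt, Δtma20, Δtma64 and ΔΔtma20tma64 was 0.43, 0.52, 0.52 and 0.58 on the log2 scale, and that of the ORFs that fell was -0.40, -0.44, -0.44 and -0.61 in the same order. These medians are a description, since the ORFs were chosen with the same libraries. Whether loss of a factor altered the response was tested by an interaction term over all ORFs. For TMA20, edgeR called 0 ORFs (112 at an unadjusted p under 0.05), and DESeq2 called 1, ARG1, whose rise was smaller in strains that lack TMA20 (interaction -1.39 on the log2 scale, adjusted p = 0.00585). The same term for ARG1 was -1.38 in edgeR with an adjusted p of 0.999. For TMA64, edgeR called 0 ORFs (400 at an unadjusted p under 0.05) and DESeq2 called 7, with interactions of 1.07 to 2.22 on the log2 scale. These 7 are ORFs without a gene name: YER148W-A, YHR095W, YKR040C, YLR285C-A, YLR342W-A, YMR290W-A and YNL143C.

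**Figure D5:**
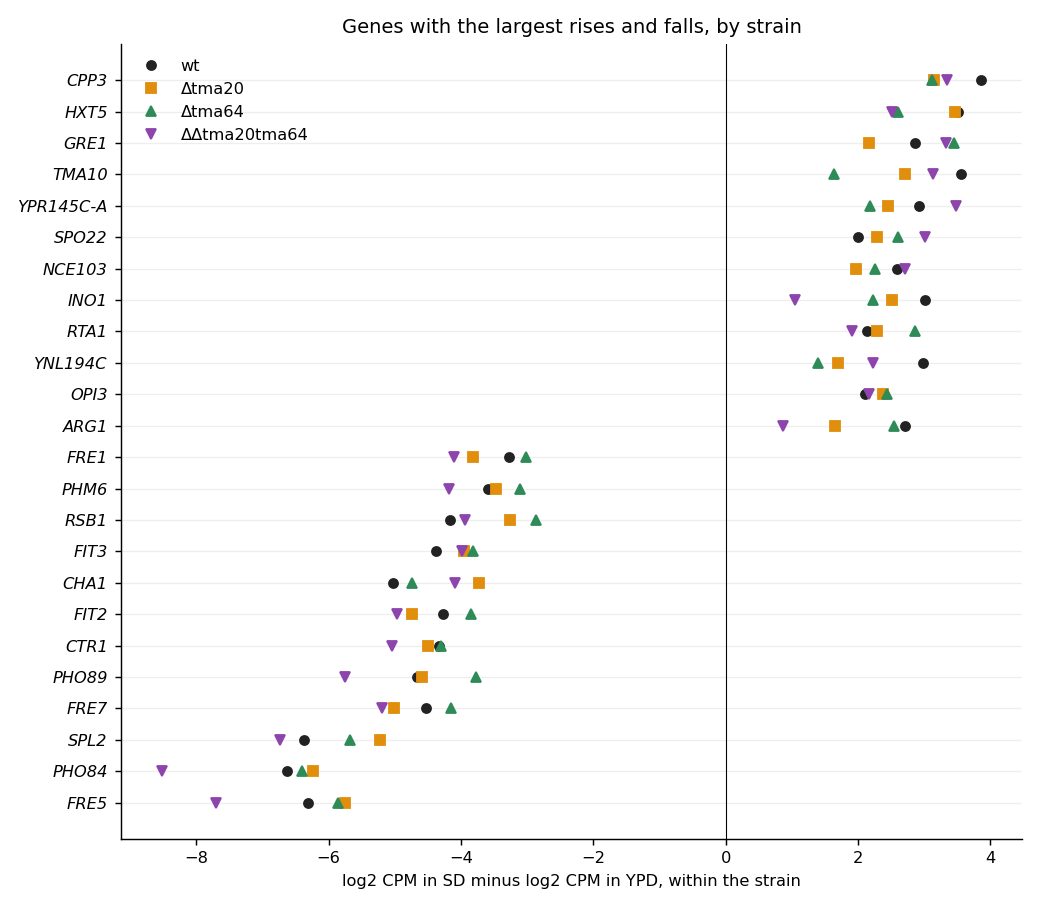
SD to YPD difference in log2 CPM (x axis) of the 12 genes with the largest rises and the 12 with the largest falls (y axis), 1 point for each of the 4 strains. All points of a gene lie on the same side of 0, as the rule that chose these genes required, and the points of ΔΔtma20tma64 for PHO84 and FRE5 lie farthest below 0.

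Ribosome footprints from the same lysates gave a second readout of the medium. With the same fit, 757 of 5286 tested ORFs rose and 595 fell in footprints, 25.6% in all. Among the leading genes, INO1, HXT5, GRE1 and FIT3 gave 6.01, 4.94, 4.92 and -8.37 on the log2 scale in footprints and 2.32, 3.10, 3.02 and -4.07 in mRNA, so the footprint value was the larger in size for each. TMA10 went the other way, at 1.36 in footprints and 2.90 in mRNA. The 2 readouts share their lysates, and the difference between them was not tested. Footprint depth was uneven: wt and Δtma20 in SD held 2337313 and 1668588 ORF counts. Δtma64 and ΔΔtma20tma64 in SD held 12443741 and 23532664, and the YPD libraries 5072702 to 8516836. The part of this depth in the footprint values was not tested.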

How the data were processed

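RNA-Seq (oligo(dT)-selected mRNA) and Ribo-Seq (ribosome footprints) were made by the submitters from the same lysates. Per the study's methods and the submitters' processing notes, adapters were trimmed with cutadapt 1.18, and reads were aligned to the R64 (sacCer3) genome and counted per gene with STAR 2.5.3a. The deposited values are raw counts of uniquely mapped reads per gene, without normalisation, for both strands together and for each strand, and those on the sense strand were taken. The tables of the 18 single libraries were equal to the table of the whole series. Summary lines of unassigned reads entered no library size. In RNA-Seq, reads outside features of their own strand made up 18.8% to 39.1% of the uniquely mapped reads.

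Of 6713 ORF rows, 6025 were found in RefSeq (R64), which gave names, coordinates and promoters. The promoter is the 500 bases before the start codon, and the printed stretches of up to 30 bases are those whose motif lies at least 100 bases before it. edgeR 4.0.16 with limma 3.58.1 (R 4.3.3) was used with filterByExpr (minimum count of 10), TMM scaling and a quasi-likelihood test with medium and strain (4 levels) as terms, leaving 4 residual degrees of freedom. P-values were adjusted by Benjamini-Hochberg over all tested ORFs, with a threshold of 0.05, and fold changes are SD over YPD. CPM are TMM-scaled. The strain is the unit that pairs an SD library with a YPD library. Ribo-Seq was fitted in the same way. Interactions of medium with the loss of TMA20 and of TMA64 were fitted over the same libraries. Shares of reads were compared by an exact permutation test. DESeq2 1.42.0, other scalings and filters, unstranded counts, thinned counts and the omission of single libraries were tried as alternatives. Scripts were tested on simulated data. Python 3.11.15, pandas 2.3.3 and matplotlib 3.10.9 served for summaries and plots.

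The 49 gene lists and the rule for named genes were chosen with earlier results of these data known. The rule takes ORFs in RefSeq with at least 80% of their 28-nt stretches unique. It names the 12 largest rises and the 12 largest falls with the same sign in all 4 strains and an average log2 CPM of at least 3, up to 4 members per list, the marker lists, the transcription factors and the deleted genes. A gene named outside it is said to be so. P-values measure only the spread among these lysates, since each mutant has 1 lysate per medium. RNA-Seq depth was 5608491 to 11388027 ORF counts per library.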

Additional observations from a re-analysis of the deposited data

Results flagged for a closer look

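In 334 groups (the SD and the YPD libraries of 167 named genes), 17 single libraries stood apart from the rest of their medium by Dixon's criterion, which flags about 1 in 20 groups by chance. The number flagged is thus near the number expected by chance. Of the 17, 7 were ΔΔtma20tma64 in SD, 6 were WT1 and 4 were ΔΔtma20tma64 in YPD.

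ΔΔtma20tma64 in SD had 1015 CPM of HSP12, where the other SD libraries had 376.8 to 442.7 CPM. It was also high for DAL2 (allantoicase), at 66.58 CPM against 45.88 to 48.75, for NDT80 (a meiotic activator), at 17.91 CPM against 11.61 to 11.98, and for FIG1 (a mating protein), at 8.141 CPM against 5.701 to 5.911. The same library was low for the purine gene ADE57, at 393 CPM against 589.2 to 622.9, for the sterol gene ERG13, at 149.1 CPM against 181.4 to 187.7, and for FRS1 (a phenylalanyl-tRNA synthetase subunit), at 371.2 CPM against 422.1 to 429.4. It also had the highest share of reads outside features, and the part of that share was not tested.

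WT1 was high for 6 genes. It had 18.85 CPM of DAN1 (other YPD libraries 1.552 to 3.594), 80.73 CPM of TIR1 (13.3 to 26.66), 66.92 CPM of ANB1 (14.51 to 17.76) and 71.2 CPM of AAC3, a mitochondrial ADP and ATP carrier (41.04 to 42.94). It was also high for RSB1, at 106.9 CPM (38.21 to 56.74), and SDA1, at 132.5 CPM (104.7 to 112.5). All of these but SDA1 were lower in SD, and without WT1 AAC3 gave -0.99 (edgeR adjusted p = 0.00190) and ANB1 -1.33 (7.30e-04) on the log2 scale.

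ΔΔtma20tma64 in YPD had 1047 CPM of HIS4 (other YPD libraries 749.4 to 806.3), 237.3 CPM of MUP1 (170.2 to 187.2), 149.1 CPM of PYK2 (103.7 to 112.2) and 66.49 CPM of SPI1, a cell wall protein of slow growth (44.84 to 51.07).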

How the results depend on the processing

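The count of 1551 ORFs (847 that rose, 704 that fell) stayed within 1.5 times under DESeq2 (1522), DESeq2's size factors (1536), library totals, the other filters and terms, unstranded and thinned counts and the mutants alone. It was 327 with wt alone (180 rose, 147 fell) and 998 without both ΔΔtma20tma64 libraries (561 rose, 437 fell), an alternative chosen after seeing the data, and both use fewer libraries. Leaving out 1 library gave 843 to 1956 calls, 462 to 1058 that rose and 378 to 898 that fell. Omission of a mutant library also removes that strain's comparison. In footprints, where 595 fell in the main fit, leaving out 1 library gave 382 to 570, with 523 to 687 that rose, and 382 came without Δtma20 in SD and 390 without Δtma20 in YPD. DESeq2 called 1 ORF for the TMA20 interaction and 7 for the TMA64 interaction, where edgeR called 0 of each. Of 184 named genes that passed, 129 did so whichever library was left out and 55 lost the call at least once. Under DESeq2 179 kept it, and 166 with unstranded counts. With wt alone, which has 1 SD library, effect sizes moved both ways. HXK2 (-0.22), ERG11 (-0.24) and CYC1 (0.36) were smaller in size on the log2 scale than in the main fit, while TIR1 (-2.69) and ANB1 (-2.69) were larger. Unstranded counts turned the sign of SPO22 to -0.30, SUL1 to -0.18, ZPS1 to -0.11, BIO5 to -0.76, TKL2 to -0.26, SMK1 to -0.73, ICL1 to -0.81 and RPL39 to -0.081, moved PGK1 to -1.16 and brought FRE5, FRE7, RSB1, DAN1 (-2.22), HXT5, GRE1, RTA1, YNL194C, STR3 and CYB2 over 1.5 times nearer to 0, with the call kept, and the cause was not tested. No paired analysis was possible by replicate number because the labels number only the 2 wt lysates in YPD and no SD lysate carries a shared number. The strain term of the main fit pairs the media by strain, and without it 934 rose and 818 fell. Depth limits genes such as FRE5 and DAN1, with 0 counts in an SD library.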

Other observations

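Some smaller lists held calls in both directions, at shares to be read against 14.4% that rose and 12% that fell over all ORFs. Among 25 genes for NAD and B vitamins, 4 rose and 6 fell, and 4 rose and 3 fell without ΔΔtma20tma64 in SD. TPN1, which takes up vitamin B6, had 233 to 271 CPM in SD and 301 to 545 CPM in YPD, and FEN2, which takes up pantothenate, had 35.5 to 51.4 CPM in SD and 63.3 to 91.7 CPM in YPD, with log2 fold changes of -0.79 and -0.71 (edgeR adjusted p = 0.00438 and 0.00509). SNZ1, of vitamin B6 synthesis, had 52.8 to 106 CPM in SD and 35.6 to 64.6 CPM in YPD, overlapping ranges with a log2 fold change of 0.76 (edgeR adjusted p = 0.0158), while its footprints gave 4.40. Among 9 genes of biotin synthesis, uptake and use, 5 rose and 1 fell (3 and 1 without ΔΔtma20tma64 in SD), and the biotin enzymes PYC1 (pyruvate carboxylase) and ACC1 (acetyl-CoA carboxylase) rose by 0.62 and 0.50 on the log2 scale.

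Of 32 genes of oxidative defence, 9 rose and 4 fell, and 7 rose and 2 fell without ΔΔtma20tma64 in SD. The peroxiredoxins TSA2 and AHP1 rose by 0.77 and 0.68 on the log2 scale (edgeR adjusted p = 0.00134 and 0.00149), with 54.6 to 65.1 CPM of TSA2 in SD and 28.4 to 37.5 CPM in YPD. The polyamine list held 2 rises and 2 falls among 14 genes (2 and 1 without ΔΔtma20tma64 in SD), near the shares over all ORFs. OAZ1, the antizyme that restrains polyamine synthesis, gave 0.68, and TPO1, a polyamine exporter, gave -0.73. In the pyrimidine list 3 of 13 genes rose (4 without ΔΔtma20tma64 in SD), URA1 (dihydroorotate dehydrogenase) most, at 0.62 on the log2 scale, with 693 to 1151 CPM in SD and 559 to 815 CPM in YPD, which overlapped because ΔΔtma20tma64 was low in SD.

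Called ORFs differed in length: the median coding length was 996 bases for ORFs that rose and 1407 bases for those that fell, where it was 1230 bases over 5641 tested ORFs. Across these ORFs the log2 fold change had a Spearman's rho of -0.14 with coding length and -0.07 with GC content, given as a description, since genes of 1 set of libraries are not independent.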
